A study of Homo sapiens with 16 samples.

Results

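Enzalutamide, an antiandrogen drug, was compared with its DMSO vehicle through the H3K4me3 maps of LNCaP cells, an androgen-responsive human prostate carcinoma line. The comparison rests on 4 of the 16 samples of the series, chosen by antibody, and sets 2 enzalutamide libraries against 2 DMSO libraries with the CRISPR guide as the block. The groups were sgC with 10 µM enzalutamide for 72 h, sgPRKCI with 10 µM enzalutamide for 72 h, sgC with DMSO for 72 h and sgPRKCI with DMSO for 72 h, called sgC ENZA, sgPRKCI ENZA, sgC DMSO and sgPRKCI DMSO here. sgC is the control guide, and sgPRKCI targets PRKCI, which encodes an atypical protein kinase C isoform. Each guide and treatment was 1 library, the medium held serum in all 4, and no source used here says whether a guide line was a clone or a pool. The maps came from CUT&RUN, in which a protein A/G-tethered micrococcal nuclease cuts out the DNA around an antibody target. EZH2 and H3K27me3 maps of the same 4 conditions were used to annotate sites.

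H3K4me3 is the trimethylated form of lysine 4 on histone H3 and is laid down at gene starts by the SET1/COMPASS and MLL methyltransferases. It is densest over CpG-rich promoters of transcribed genes and is read by factors of the transcription machinery, while KDM5 demethylases remove it. In luminal prostate cells androgen signalling acts mostly from enhancers, together with the pioneer factor FOXA1, and its target genes include KLK3, TMPRSS2, FKBP5 and SLC45A3.

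The 4 libraries differed in depth along the treatment. The mean fragment coverage recovered from the peak lists was 1.56 in sgC ENZA and 1.39 in sgPRKCI ENZA, against 0.842 in sgC DMSO and 1.22 in sgPRKCI DMSO. The lists held 19294 and 18926 peaks on ENZA, against 17424 and 18967 on DMSO, on chromosomes 1 to 22, X and Y. Overlapping peaks merged into 23064 sites, of which 14640 (63.5%) had a peak in all 4 libraries. All 7 luminal prostate markers reported (KRT8, KRT18, KLK3, HOXB13, FOXA1, TMPRSS2 and EPCAM) had a peak in every library, and none of 11 markers of other cells (PTPRC, CD3E, CD14, PECAM1, VWF, ALB, MYOD1, GFAP, TP63, KRT5 and KRT14) had one in any. Of a wider list of 32 genes of other lineages 25 had no peak in any library, and APOA1, CD68, HBA1, RBFOX3 and SFTPC, the last at a site shared with BMP1, had one in all 4.

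Heights are given as relative heights, the fragments piled at the summit divided by the library's median over the shared sites, so that 1 is the typical shared site. That median was 169 fragments in sgC ENZA and 161 in sgPRKCI ENZA, against 76.0 in sgC DMSO and 115 in sgPRKCI DMSO. Measured over coverage, the median site itself was higher on ENZA, by log2 0.26 under sgC and 0.29 under sgPRKCI. Every change below is relative to that shift. Scaled by coverage alone, 6947 sites would be called higher and 408 lower, and whether the shift is in the chromatin or in the enrichment of the libraries cannot be told apart here.

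Promoters of 6 genes whose H3K4me3 changed in the same direction under both guides are shown here, because they span promoters rich and poor in CpG. Each is the RefSeq window from 250 bases before to 50 after the gene's start (GRCh38.p14), written 5′ to 3′ on the gene's strand with every CpG in capitals. LRRN1 and FOXA1 were higher on ENZA, and AZGP1, SPDEF, MAF and ZIK1 were lower.
LRRN1 (chr3:3799181-3799480, plus strand): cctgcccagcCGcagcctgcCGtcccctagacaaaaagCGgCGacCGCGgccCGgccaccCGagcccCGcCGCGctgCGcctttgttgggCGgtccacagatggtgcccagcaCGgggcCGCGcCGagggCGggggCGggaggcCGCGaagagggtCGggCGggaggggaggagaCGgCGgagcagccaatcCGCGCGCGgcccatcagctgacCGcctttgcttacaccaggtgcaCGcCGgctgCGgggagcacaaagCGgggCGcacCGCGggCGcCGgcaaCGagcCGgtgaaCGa
FOXA1 (chr14:37595200-37595499, minus strand): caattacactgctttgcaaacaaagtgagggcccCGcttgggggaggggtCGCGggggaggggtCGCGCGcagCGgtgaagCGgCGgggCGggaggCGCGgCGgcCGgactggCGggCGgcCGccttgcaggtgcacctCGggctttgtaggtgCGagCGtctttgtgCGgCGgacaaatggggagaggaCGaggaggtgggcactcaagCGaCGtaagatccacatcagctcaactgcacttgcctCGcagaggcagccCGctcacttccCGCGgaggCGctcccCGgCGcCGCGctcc
AZGP1 (chr7:99975982-99976281, minus strand): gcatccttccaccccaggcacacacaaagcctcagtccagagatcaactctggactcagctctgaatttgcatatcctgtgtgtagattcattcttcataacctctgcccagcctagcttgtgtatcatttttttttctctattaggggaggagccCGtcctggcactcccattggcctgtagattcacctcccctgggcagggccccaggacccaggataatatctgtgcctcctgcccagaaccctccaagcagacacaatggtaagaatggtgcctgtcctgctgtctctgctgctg
SPDEF (chr6:34556280-34556579, minus strand): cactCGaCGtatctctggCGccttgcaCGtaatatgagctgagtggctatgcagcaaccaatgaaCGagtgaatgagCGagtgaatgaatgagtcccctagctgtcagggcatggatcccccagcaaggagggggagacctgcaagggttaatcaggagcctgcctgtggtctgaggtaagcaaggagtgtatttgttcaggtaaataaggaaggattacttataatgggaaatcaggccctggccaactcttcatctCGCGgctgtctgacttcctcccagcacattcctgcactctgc
MAF (chr16:79600688-79600987, minus strand): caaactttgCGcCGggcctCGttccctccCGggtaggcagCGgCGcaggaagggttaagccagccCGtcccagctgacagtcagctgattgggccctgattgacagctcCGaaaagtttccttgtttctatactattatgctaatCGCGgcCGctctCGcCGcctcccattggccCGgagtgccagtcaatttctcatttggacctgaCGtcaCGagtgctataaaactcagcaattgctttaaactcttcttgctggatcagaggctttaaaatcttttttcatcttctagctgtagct
ZIK1 (chr19:57583895-57584194, plus strand): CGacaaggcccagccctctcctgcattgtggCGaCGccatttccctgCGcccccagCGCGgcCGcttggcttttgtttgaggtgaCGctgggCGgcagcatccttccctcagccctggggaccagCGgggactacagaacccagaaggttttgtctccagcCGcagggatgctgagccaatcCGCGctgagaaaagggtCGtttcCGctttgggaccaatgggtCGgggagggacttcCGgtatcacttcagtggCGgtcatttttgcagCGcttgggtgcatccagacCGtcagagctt
The LRRN1 window held 42 CpGs and the FOXA1 window 34, against 16 at MAF, 8 at SPDEF and 1 at AZGP1, where ZIK1 held 20. All 6 windows were overlapped by the H3K4me3 site of their gene. These 6 do not stand for their classes: the median promoter held 28 CpGs among genes called higher, beside 27 over all tested genes, and only 77.9% of the genes called lower have a promoter in the table, so a comparison with them is void. On both strands, TATAAA was found once in the MAF window, from base 221, and at 9.63% of all 15842 coding promoters. CCGGAAG, an ETS motif, was found once in the ZIK1 window, as its reverse complement from base 235, and at 14.2% of all coding promoters. AGAACA, a half-site of the androgen response element, was in none of the 6 windows and in 11.2% of all coding promoters, and the forkhead motif TGTTTAC was in none of the 6 and in 2.61% of all. Among promoters of the tested genes the shares were 4.98% for TATAAA, 20.6% for CCGGAAG, 8.22% for AGAACA and 2.09% for TGTTTAC. The search covered 300 bases per gene and says nothing of binding elsewhere.

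Over the 14640 shared sites, H3K4me3 rose relative to the median at 604 sites (4.13%) and fell at 1221 (8.34%) on ENZA, together 12.5% of the sites tested, by limma with guide as a block and an adjusted p under 0.05. Of these, 603 of the 604 higher sites and 1219 of the 1221 lower sites moved in the same direction under both guides, beside 9903 of all 14640. The calls rest on the mean of the same 2 within-guide changes, so this agreement is partly set by the selection. The changes were small: the median log2 change was 0.32 at called higher sites and −0.65 at called lower sites. A change of at least 2-fold under both guides was seen at 2 sites that were higher (0.0137%) and at 51 that were lower (0.348%), and at 0 sites in opposite directions. The 51 became 12 after cyclic loess and 10 with coverage scaling. With 1 library per guide and treatment and 1 residual degree of freedom, limma took the spread wholly from its trend across sites, so a p-value sets the mean change of a site against the usual disagreement of the guides at sites of that height, not against the spread of repeated cultures. Without the guide term, 14 sites passed as higher and 69 as lower. A fit on 3 libraries cannot hold the guide term, because no residual degree of freedom is left. Without that term and without sgC DMSO, the shallowest library, 0 sites passed in either direction, beside 2063 at an unadjusted p under 0.05. With all 4 libraries and the guide term 3948 sites had such a p.

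**Figure D1:**
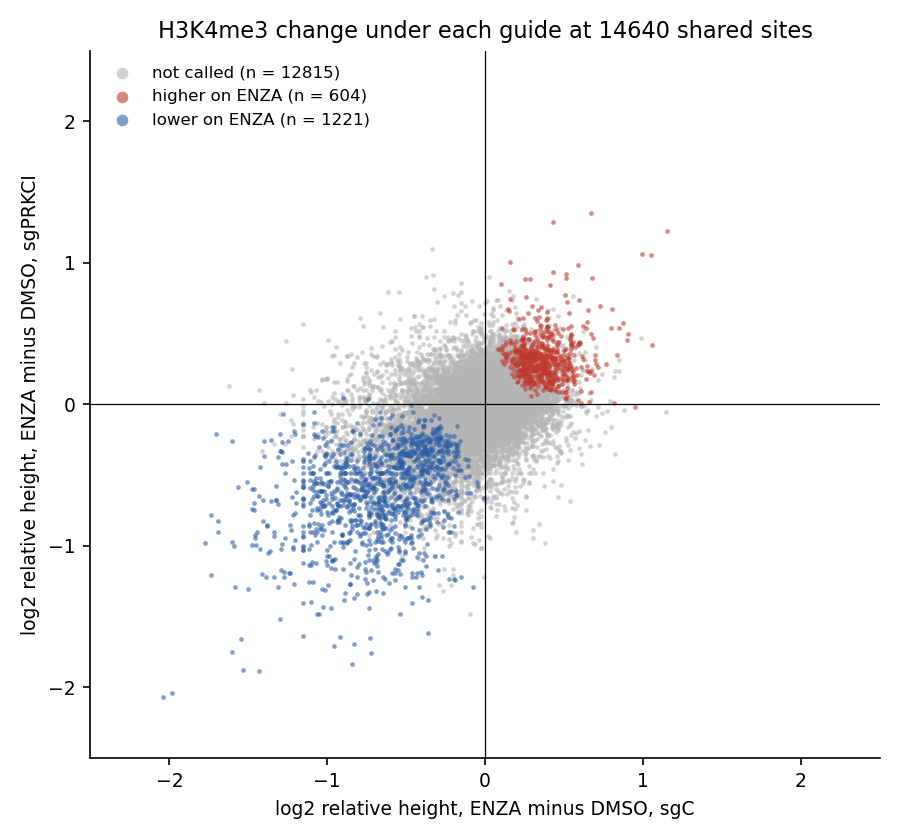
Log2 change in relative H3K4me3 height on ENZA against DMSO at each of the 14640 shared sites, under sgC (x axis) and under sgPRKCI (y axis); colours mark the 604 sites called higher and the 1221 called lower, relative to the median site. Apart from 1 higher and 2 lower sites, called sites lie in the quadrants where both guides moved the same way, as do 9903 of all sites. The sites called lower reach further from 0.

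Across sites, the change under sgC and the change under sgPRKCI had a Pearson r of 0.56 over 14640 sites, given as a description because the sites share 4 libraries and their depth. That r was 0.46 after cyclic loess and 0.13 on the deposited fold enrichment over local background. The change also followed the height of the site. In the lowest decile of shared sites, with a median of 22.6 fragments, the median log2 change was −0.47 under sgC and −0.29 under sgPRKCI, and in the top decile, with 273 fragments, it was 0.04 under both. A shared site must reach the caller's threshold in every library, and that threshold stood higher in the shallow libraries: the fewest fragments that could pass were 0.0592 of the median site in sgC ENZA and 0.0621 in sgPRKCI ENZA, against 0.105 in sgC DMSO and 0.0783 in sgPRKCI DMSO. The part of depth in the fall of low sites was not tested. After cyclic loess, which removes a dependence on height, 473 sites were higher and 722 lower, and 361 of the higher and 643 of the lower calls above were among them.

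**Figure D2:**
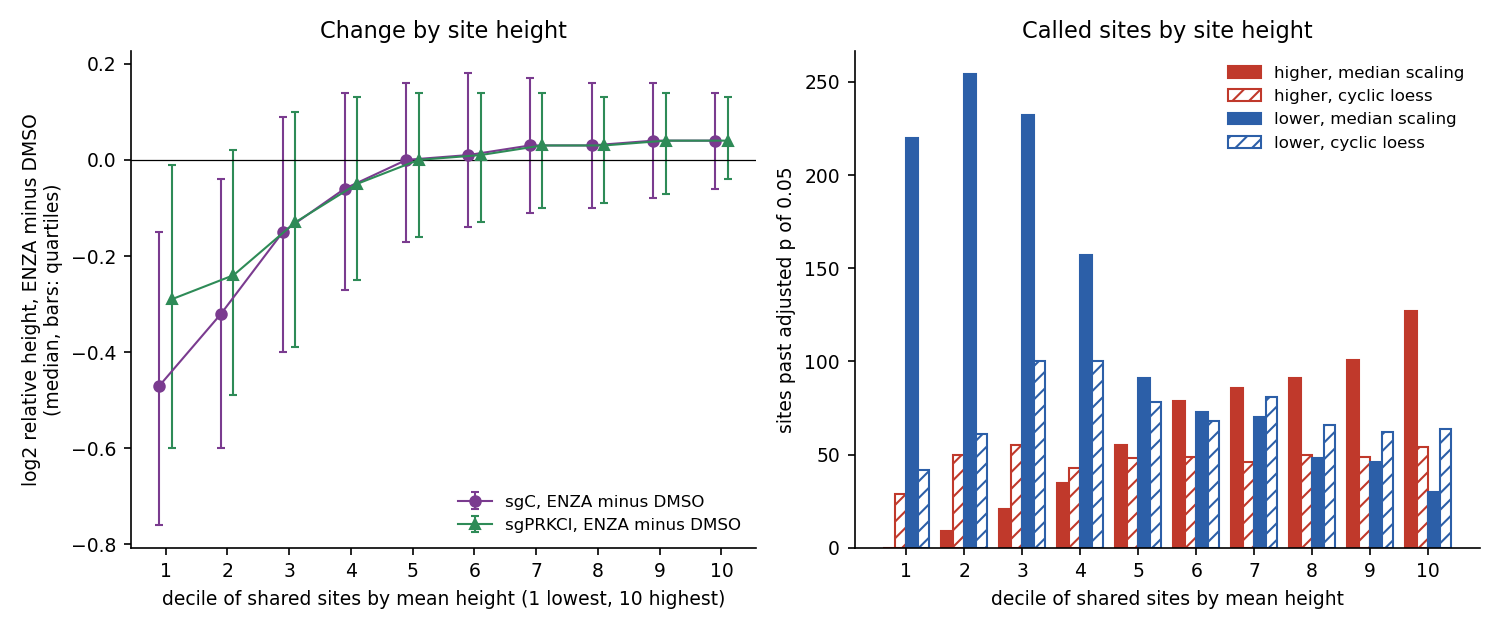
Left, median log2 change on ENZA against DMSO with quartiles in each decile of the shared sites by mean height, for sgC and sgPRKCI; right, sites past the adjusted p of 0.05 in each decile with median scaling (filled) and after cyclic loess (hatched). The low deciles sit below 0 under both guides, and most of their lower calls are absent after loess.

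Higher and lower sites differed in place and shape. Of the higher sites, 87.3% lay within 1 kb of an end of a protein-coding gene, against 44.8% of the lower sites and 70.0% of all shared sites. Peaks were wider on ENZA under both guides at 59.1% of the higher sites and 17.4% of the lower sites, beside 40.9% of all. H3K27me3, the Polycomb mark, had a peak in all 4 conditions at 0.993% of the higher and 5.73% of the lower sites, beside 2.36% of all. Height moves with these properties: higher sites had a median of 280 fragments in sgC ENZA against 97.5 in sgC DMSO, and lower sites 60 against 44.0. Among the sites called after cyclic loess the contrasts were smaller. There 78.9% of the higher and 58.0% of the lower sites lay within 1 kb of a gene end, and 2.96% and 3.32% carried H3K27me3 in all 4 conditions.

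For protein-coding genes the tallest shared site within 1 kb of either gene end was used, which gave 11801 of 20033 genes. By the same limma fit, 634 genes were higher (5.37%) and 538 lower (4.56%); after loess 429 were higher (3.64%) and 455 lower (3.86%), of which 355 and 377 were already called. The median gene changed by log2 0.02. The genes named next are the 10 in each direction whose smaller change of the 2 guides was largest, and they kept their call after loess. Where values of the treatments are said not to overlap, this is common among the 14640 shared sites. Both ENZA libraries stood above both DMSO libraries at 3130 of them and below both at 4121. Among called sites it was nearly set by the call. Both ENZA libraries stood above both DMSO libraries at 577 of the 604 higher sites, and below both at 1176 of the 1221 lower sites.

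LRRN1, a leucine-rich repeat membrane protein of neurons, had the largest rise. Its relative height was 0.994 in sgC ENZA and 1.28 in sgPRKCI ENZA, against 0.447 in sgC DMSO and 0.548 in sgPRKCI DMSO, a 2.28-fold difference (log2 1.19 ± 0.14, SE; limma adjusted p = 3.2e-14). Both ENZA libraries stood above both DMSO libraries, over a site at chr3:3798663-3801735 that covers the printed promoter. LUZP2, a leucine zipper protein gene, had relative heights of 1.41 and 1.88 on ENZA, against 0.711 and 0.896 on DMSO (log2 1.03 ± 0.11). COLEC12, a scavenger receptor of the collectin family, had 0.544 and 0.758 on ENZA, against 0.263 and 0.365 on DMSO (log2 1.05 ± 0.17). The sites of LRRN1 and COLEC12 are the 2 counted above as at least 2-fold higher under both guides, and at LUZP2 the change was log2 0.99 under sgC and 1.07 under sgPRKCI.

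NRP1, a coreceptor for semaphorins and VEGF, had relative heights of 1.03 and 1.13 on ENZA, against 0.645 and 0.609 on DMSO (log2 0.78 ± 0.13). BAMBI, a decoy receptor that dampens TGF-β signalling, had 1.72 and 2.15 on ENZA, against 1.14 and 1.09 on DMSO (log2 0.79 ± 0.10). SMARCD3, a subunit of BAF chromatin remodelers, had 0.550 and 0.528 on ENZA, against 0.316 and 0.330 on DMSO (log2 0.74 ± 0.18). At these 3 genes the ENZA and DMSO values did not overlap. The orphan receptor genes GPR63 and GPR137B rose by log2 0.66 and 0.61, SMIM30 by 0.71 and the metalloproteinase inhibitor gene TIMP2 by 0.59. Adjusted p over these 10 genes ran from 5.2e-16 at LUZP2 to 0.0123 at GPR137B.

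BOK, a BCL-2 family member, had the deepest fall among genes. Its relative height was 0.107 in sgC ENZA and 0.0994 in sgPRKCI ENZA, against 0.421 in sgC DMSO and 0.409 in sgPRKCI DMSO, which is 0.248 of the DMSO level (log2 −2.01 ± 0.25; limma adjusted p = 2.8e-12). In fragments these are 18 and 16 on ENZA, against 32 and 47 on DMSO, so the fall holds also before scaling, in the deeper libraries. The site, chr2:241549859-241550564, was tied to BOK through an end of the gene less than 1 kb away and did not overlap its RefSeq promoter window. ZIK1, a zinc finger protein gene on chromosome 19, had relative heights of 0.112 and 0.155 on ENZA, against 0.303 and 0.574 on DMSO (log2 −1.66 ± 0.24), at the promoter printed above. HIC1, a transcriptional repressor that is often hypermethylated in cancer, had 0.130 and 0.130 on ENZA, against 0.368 and 0.322 on DMSO (log2 −1.40 ± 0.25).

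The other lower genes were low sites of 0.107 to 0.219 in the ENZA libraries, apart from MAF. They were FAM163B (log2 −1.17), NPPC, which encodes C-type natriuretic peptide (−1.22), the complexin gene CPLX1 (−1.16), the fascin gene FSCN1 (−1.07), and COX6B2 with GARIN5B, which share a site (−1.25). The site of COX6B2 and GARIN5B and that of FAM163B carried EZH2 and H3K27me3 peaks in all 4 conditions, and HIC1 and FSCN1 carried EZH2 in 4 conditions and H3K27me3 in 3. BOK and ZIK1 had neither mark in any condition. EZH2 had a peak in all 4 conditions at 3.55% of all shared and 6.80% of the lower sites. H3K27me3 did so at 2.36% and 5.73%. The EZH2 peaks of sgPRKCI ENZA alone overlapped 89.2% of all shared sites, so that condition adds little to an EZH2 count. Adjusted p over the 10 genes reached 0.00019 at FAM163B.

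**Figure D3:**
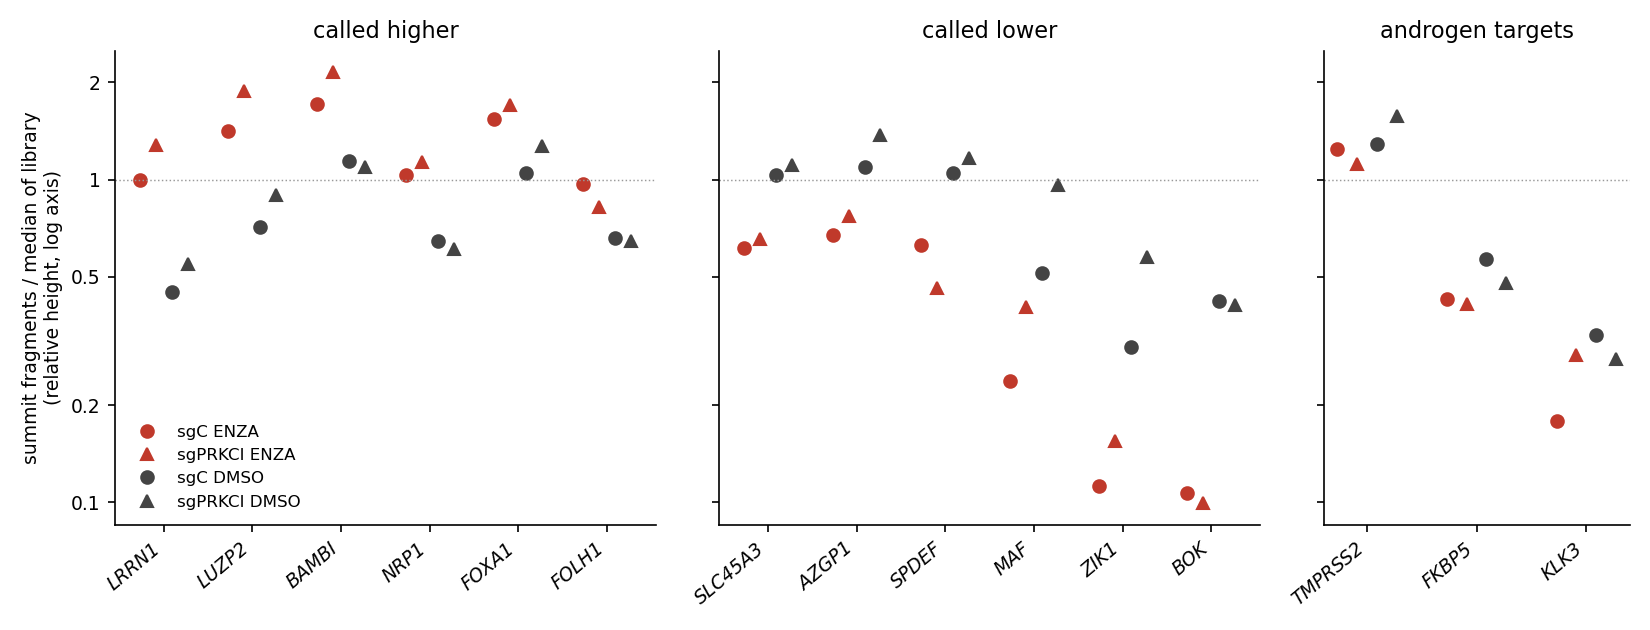
Relative H3K4me3 height (log axis; 1 is the median shared site) of named genes in the 4 libraries, ENZA in red and DMSO in grey, circles for sgC and triangles for sgPRKCI. In the left and middle panels the red and grey points do not overlap within any gene; in the right panel they overlap at KLK3.

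Androgen-induced genes did not move as one group. Of 40 androgen-induced genes 30 had a testable site, of which 1 rose and 6 fell (3.33% and 20%, beside 5.37% and 4.56% of all genes). Their median log2 change was −0.09, beside 0.02 over all genes, and it was 0.19 beside 0.30 when scaled by coverage, where the sign turns. Within the list, 15 genes were lower under both guides and 5 higher under both. The 6 that fell, MAF, AZGP1, SLC45A3, IQGAP2, GNMT and PMEPA1, were also called lower after loess. Scaled by coverage, 4 genes of the list were called lower and 13 higher, beside 106 lower and 7202 higher of all 11801 genes.

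MAF, a bZIP transcription factor gene, had relative heights of 0.237 in sgC ENZA and 0.404 in sgPRKCI ENZA, against 0.513 in sgC DMSO and 0.965 in sgPRKCI DMSO (log2 −1.19 ± 0.17; limma adjusted p = 2.9e-09). SLC45A3, which encodes the prostate-restricted transporter prostein, had 0.615 and 0.652 on ENZA, against 1.03 and 1.11 on DMSO (log2 −0.75 ± 0.13; adjusted p = 2.4e-06). AZGP1, which encodes a secreted zinc-binding glycoprotein, had 0.675 and 0.770 on ENZA, against 1.09 and 1.37 on DMSO (log2 −0.76 ± 0.12; adjusted p = 2.8e-07). At each of the 3 genes both ENZA values lay below both DMSO values. IQGAP2, a scaffold protein gene, fell by log2 0.68 ± 0.16, GNMT, which encodes glycine N-methyltransferase, by 0.44 and PMEPA1, which encodes an inhibitor of TGF-β signalling, by 0.39. NCAPD3, a condensin subunit gene, was the 1 that rose, by log2 0.23, and it was not called after loess.

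None of the textbook targets KLK3, TMPRSS2 and FKBP5 passed the test. TMPRSS2, the androgen-regulated serine protease gene, had relative heights of 1.24 and 1.12 on ENZA, against 1.29 and 1.57 on DMSO (log2 −0.27 ± 0.10; adjusted p = 0.063). FKBP5, a cochaperone gene, had 0.426 and 0.410 on ENZA, against 0.566 and 0.478 on DMSO (log2 −0.32 ± 0.17; adjusted p = 0.216). KLK3, the gene of prostate-specific antigen, had 0.178 and 0.286 on ENZA, against 0.329 and 0.278 on DMSO; it was log2 −0.89 under sgC and 0.04 under sgPRKCI. KLK2 was not testable because sgC ENZA had no peak there; it had 20 fragments in sgPRKCI ENZA, against 13 in sgC DMSO and 22 in sgPRKCI DMSO.

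Among 20 androgen-repressed genes 7 were testable, 2 rose and 0 fell (28.6% higher, beside 5.37% of all genes). The list was mixed, with 3 genes higher under both guides and 2 lower under both. Its median log2 change was 0.10, with 0.18 under sgC and −0.03 under sgPRKCI. FOLH1, the gene of prostate-specific membrane antigen, had relative heights of 0.970 and 0.820 on ENZA, against 0.658 and 0.643 on DMSO (log2 0.46 ± 0.14; limma adjusted p = 0.0129). CAMK2N1, an inhibitor of CaMKII, had 0.864 and 0.901 on ENZA, against 0.592 and 0.757 on DMSO (log2 0.40 ± 0.14; adjusted p = 0.0331). The groups did not overlap at either gene.

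Luminal identity genes moved in both directions. Of 14 testable genes 2 rose and 1 fell (14.3% and 7.14%, beside 5.37% and 4.56% of all genes), with a median of −0.01. FOXA1, a pioneer factor that opens chromatin, had relative heights of 1.54 and 1.70 on ENZA, against 1.05 and 1.27 on DMSO (log2 0.48 ± 0.10; limma adjusted p = 0.00019). The FOXA1 site is shared with TTC6. HOXB13, a prostate homeobox gene, rose by log2 0.31 ± 0.10, at a site shared with PRAC1 and PRAC2. SPDEF, an ETS factor of luminal cells, had 0.627 and 0.460 on ENZA, against 1.05 and 1.17 on DMSO (log2 −1.04 ± 0.14; adjusted p = 1.6e-11). Of 8 testable basal and mesenchymal genes 0 passed, and of 7 neuroendocrine genes only ELAVL3, a neuronal RNA-binding protein gene, passed, with a fall of log2 0.37. Most genes of these 2 lists, 14 of 24 and 19 of 30, had no peak in any library.

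**Figure D4:**
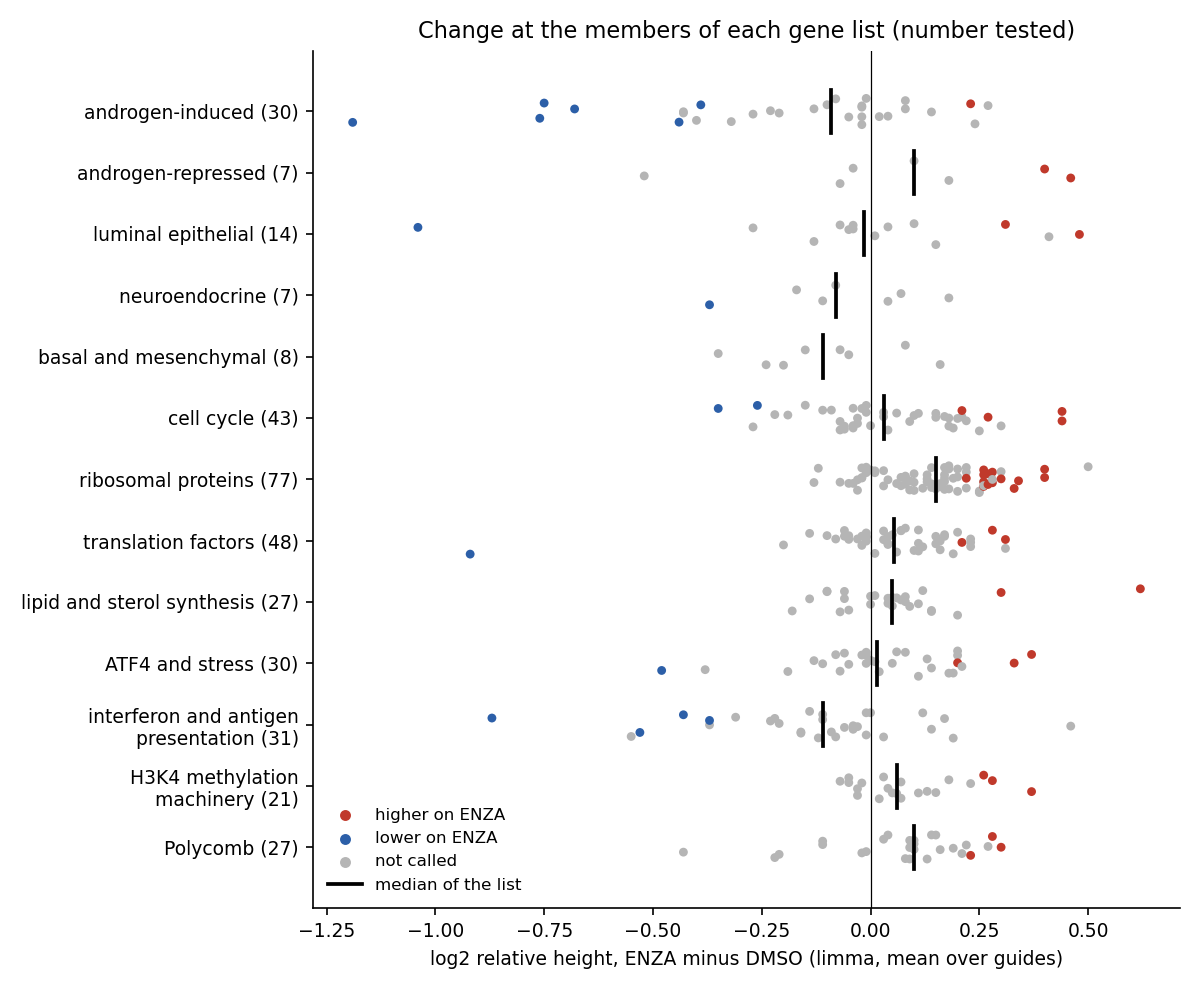
Mean log2 change in relative height on ENZA against DMSO for each testable gene of 13 lists, with the number tested in brackets, calls in colour and a bar at the list's median. The ribosomal protein genes sit right of 0 and the androgen-induced list spreads left; scaled by coverage, every median shown is above 0.

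Among the ribosomal protein genes the calls went one way. Of 77 tested genes 14 rose and 0 fell (18.2% higher, beside 5.37% of all genes), and 51 were higher under both guides against 3 that were lower under both (66.2% and 3.90%, beside 36.6% and 29.0% of all genes). The median log2 change was 0.15, 0.16 under sgC and 0.13 under sgPRKCI, beside 0.02 over all genes; after loess 7 were past the threshold, of which RPS9 was not among the 14, and the median was 0.13. RPL30 had relative heights of 1.83 and 1.68 on ENZA, against 1.32 and 1.35 on DMSO (log2 0.40 ± 0.10; limma adjusted p = 0.00116). RPL37 had 1.98 and 1.70 on ENZA, against 1.34 and 1.44 on DMSO (log2 0.40 ± 0.09), and RPL24 had 2.09 and 1.82, against 1.54 and 1.54 (log2 0.34 ± 0.09). At all 3 genes the treatments did not overlap. These are tall sites, with a median of 216 fragments against 162 over all genes, and tall sites as a whole changed by 0.04. Of 48 translation factor genes 3 rose and 1 fell (6.25% and 2.08%), which is near the 5.37% and 4.56% of all genes. EEF2, the elongation factor that moves the ribosome, rose by log2 0.31. The initiation factor genes EIF3A and EIF3J rose by 0.28 and 0.21, the second without a call after loess. EIF3C fell by log2 0.92, an uncertain value because EIF3CL is a near-identical copy.

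Growth and stress lists were near the median gene. Of 43 cell cycle genes 4 rose and 2 fell (9.30% and 4.65%, beside 5.37% and 4.56% of all genes), with a median of 0.03. The cyclin genes CCNA2 and CCNE1 each rose by log2 0.44 ± 0.12, PCNA and CDKN1B rose by 0.27 and 0.21 without a call after loess, and the replicative helicase genes MCM2 and MCM7 fell by 0.35 and 0.26. The site of CCNA2 is shared with BBS7 and that of MCM2 with TPRA1. Of 27 lipid and sterol synthesis genes 2 rose and 0 fell (7.41% higher, beside 5.37% of all genes). ELOVL6, a fatty acid elongase gene, had relative heights of 1.34 and 1.06 on ENZA, against 0.934 and 0.643 on DMSO (log2 0.62 ± 0.12; limma adjusted p = 4.6e-05), and CYP51A1, of cholesterol synthesis, rose by log2 0.30. Of 30 ATF4 and stress genes 3 rose and 1 fell (10.0% and 3.33%, beside 5.37% and 4.56% of all genes). TRIB3 rose by log2 0.37, XBP1 by 0.33 and the amino acid transporter gene SLC7A1 by 0.20, the last without a call after loess, and GDF15, a stress-induced cytokine gene, fell by 0.48.

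Among 31 tested interferon and antigen presentation genes, 0 rose and 4 fell (12.9%, beside 4.56% of all genes), with a median log2 change of −0.11 that was 0.17 when scaled by coverage. MX1, an antiviral GTPase gene, had relative heights of 0.166 and 0.193 on ENZA, against 0.316 and 0.339 on DMSO (log2 −0.87 ± 0.23; limma adjusted p = 0.00457). IRF7, at a site shared with CDHR5, fell by log2 0.53, ISG15 by 0.43 and IFITM3 by 0.37. After loess ISG15 and IFITM3 were still called lower and MX1 and IRF7 were not. MX1 and IRF7 are low sites, of 24 to 68 fragments, and the list's median site held 83.5 fragments.

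Genes that write, erase or oppose the mark itself were tested as well. Of 21 H3K4 methylation genes 3 rose and 0 fell (14.3% higher, beside 5.37% of all genes): the demethylase genes KDM5C (log2 0.37) and KDM5A (0.28) and the methyltransferase gene KMT2C (0.26), of which KDM5C kept its call after loess. The site of KDM5C is shared with IQSEC2 and that of KDM5A with CCDC77. Of 27 Polycomb genes 3 rose and 0 fell (11.1% higher, beside 5.37% of all genes): PHC3 (0.30), CBX2 (0.28) and EZH2 (0.23), of which PHC3 kept its call. EZH2, the H3K27 methyltransferase gene, had relative heights of 2.83 and 2.77 on ENZA, against 2.20 and 2.58 on DMSO. PRKCI, whose guide defines the blocks, had 2.04 and 1.81 on ENZA, against 1.89 and 1.59 on DMSO (log2 0.14 ± 0.09; adjusted p = 0.271). A histone mark at its start does not test a guide's cut.

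Sites with a peak on one treatment alone were counted next. Under both guides 671 of 23064 sites (2.91%) had a peak in both ENZA libraries and in neither DMSO library, and 274 (1.19%) the reverse. A further 338 sites were gained under sgC and lost under sgPRKCI and 129 the other way, 467 in all against 945 that went the same way. Gains were low peaks, with a median of 20 fragments in sgC ENZA and 19 in sgPRKCI ENZA, and losses had 14 in sgC DMSO and 18 in sgPRKCI DMSO. Only 24 gained sites (3.58%) were tall enough that an equal site would have been called in both DMSO libraries with a probability of at least 95%, at their coverage. For lost sites that number was 129 (47.1%). Gained and lost sites were mostly away from genes, with 12.4% and 16.8% within 1 kb of a coding gene end, beside 49.5% of all sites.

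Each DMSO coverage was below each ENZA coverage, so the direction of gain runs with depth, and the part of depth in the other gains was not tested. With fragments scaled to the coverage of sgC DMSO, 347 sites were gained and 401 lost.

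**Figure D5:**
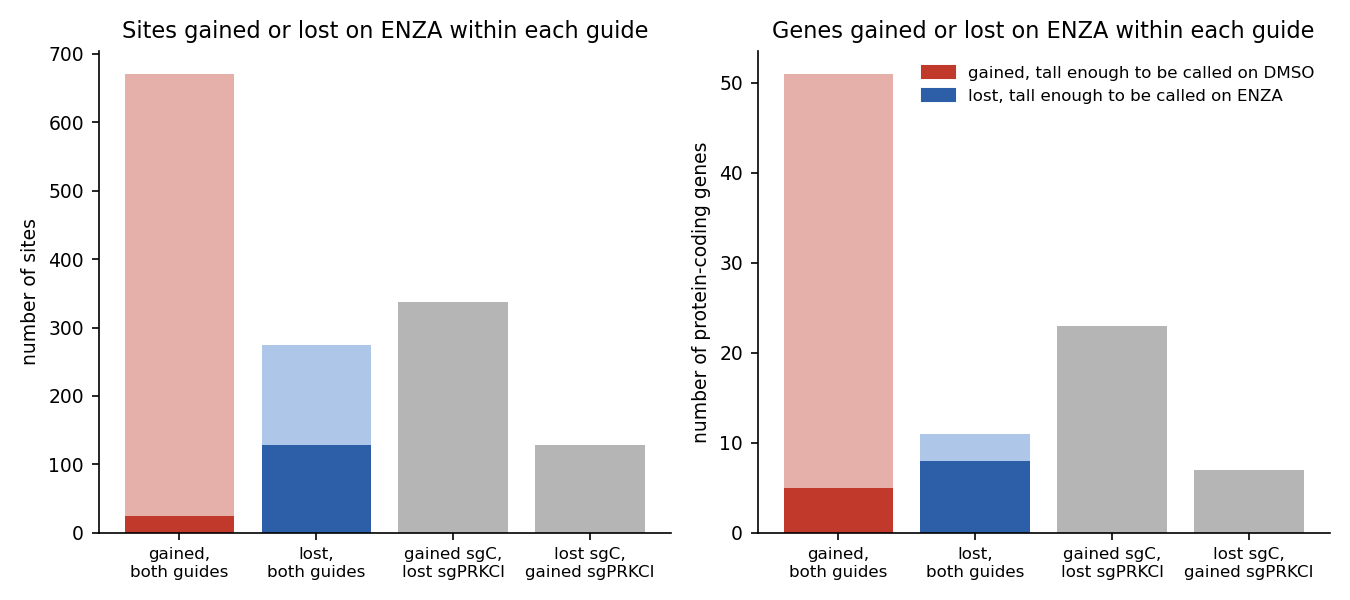
Numbers of sites (left) and protein-coding genes (right) gained or lost on ENZA against DMSO under both guides, and in opposite directions under the guides (grey); dark parts are those tall enough to be called at the depth of the other treatment. Of 671 gained sites 24 are in the dark part, and of 274 lost sites 129.

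The tallest lost site lay at chr17:76641422-76644100, within ST6GALNAC1, a sialyltransferase gene. Its summits held 30 fragments in sgC DMSO and 81 in sgPRKCI DMSO, and neither deeper ENZA library had a peak. Losses at chr3:129423666-129424836 within EFCAB12 (27 and 60 fragments on DMSO), chr11:61425030-61426289 within CPSF7 (29 and 47) and chr7:8239726-8240320 within ICA1 (39 and 43) had their midpoints over 4 kb from any coding gene end. The tallest gains were short. A 267-base site at chr4:131735001-131735267 outside genes held 63 fragments in sgC ENZA and 58 in sgPRKCI ENZA, a 213-base site at chr1:77811679-77811891 in MIGA1 held 83 and 56, and neither had a peak on DMSO.

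For genes, a gain needed a peak within 1 kb of an end in both ENZA libraries and none within 5 kb in both DMSO libraries. By that rule 51 genes were gained (0.255%) and 11 lost (0.0549%), and 30 went opposite ways under the guides. Of the gained genes 5 stood at sites tall enough to be seen on DMSO, among them ABCC6, CTCFL, SYT1 and VWA5A, and of the lost genes 8 stood at sites tall enough to be seen on ENZA. The 51 gained genes made up 16.6% of all genes gained under sgC and 30.7% of all genes gained under sgPRKCI. The 11 lost genes made up 20.4% and 10.5% of those lost under sgC and sgPRKCI.

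ABCC6, a transporter gene, held 35 fragments in sgC ENZA and 33 in sgPRKCI ENZA and had no peak on DMSO, a value that is uncertain because ABCC6 has near-identical pseudogenes. CTCFL, the germline paralogue of CTCF, held 34 and 26 on ENZA and SYT1, a synaptic vesicle protein gene, 36 and 25. VWA5A held 32 and 24, FOXN3, a forkhead repressor gene, 28 and 24, KCNN3, a potassium channel gene, 30 and 24, and DDIT4L, an inhibitor of mTOR signalling, 26 and 25. All of these genes were also called with a −log10 q of at least 10 and with coverage scaled to sgC DMSO. They were, however, named for their height. Of all 51 gained genes only 19 were kept at that −log10 q and 27 with scaled coverage. The sites of FOXN3, KCNN3 and DDIT4L were, however, not tall enough to be counted as seen on DMSO. The part of depth in the gain of these genes was not tested.

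The lost genes were led by ST6GALNAC1. CDK3, a cyclin-dependent kinase gene, had no peak on ENZA and held 22 fragments in sgC DMSO and 30 in sgPRKCI DMSO. RHOBTB2, an atypical small GTPase gene, held 20 and 32 on DMSO, RBFOX1, a splicing regulator gene, 20 and 22, and LAMP3, a lysosomal membrane protein gene, 18 and 20. C3, the central complement component, held 15 and 18 on DMSO, TLE4, a corepressor gene, 13 and 16, and CAPN13, a calpain gene, 10 and 24. RHOBTB2, C3, TLE4 and CAPN13 were not called with a −log10 q of at least 10, and all 8 were called with coverage scaled to sgC DMSO. Of all 11 lost genes 4 were kept at that −log10 q and 8 with scaled coverage.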

How the data were processed

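H3K4me3, EZH2 and H3K27me3 CUT&RUN peak lists of 12 libraries were read; 4 further libraries, made with IgG, are not analysed here. Per the submitters' processing notes, the tools included FastQC, Trimmomatic, Bowtie2, SAMtools and MACS2, with GRCh38 as the genome build. The authors deposited 1 list per library, with a score, a fold enrichment ratio over local background, a −log10 p, a −log10 q and a summit offset for each peak; these are the authors' values, and no MACS2 options were at hand.

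The summit fragments and local background of each H3K4me3 peak were solved from its deposited fold enrichment and −log10 p. The solution was a whole number of fragments (−log10 p matched within 0.002) at 99.98% to 100.0% of peaks, and the lowest background gave the mean coverage that served as depth. Fragment numbers carry counting error, so low sites are the least precise. Peaks on other contigs (6.18% to 6.50%) were left out.

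Peaks overlapping by at least 1 bp were merged into sites, and the highest summit of a library was its value. Log2 fragments, centred on each library's median over sites with a peak in all 4 libraries, were fitted with limma 3.58.1 in R 4.3.3 (guide and treatment, eBayes with trend) and adjusted over all sites by Benjamini-Hochberg, with a threshold of 0.05. No study test is given in the sources used here, and the guide block follows the layout of the samples. Gained and lost sites and genes were counted without a test. Genes came from the RefSeq table (GRCh38.p14). Python 3.11.15, pandas 2.3.3 and SciPy 1.17.1 did the rest. The fit and the solving of fragments were tested on simulated data.

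Genes were named by rule: 10 per direction by the smaller change of the 2 guides among called genes, 8 gained and 8 lost by the lower of the 2 heights, called members of each list among its 4 with the largest change, and KLK2, KLK3, TMPRSS2, FKBP5, PRKCI and EZH2; other called list members were added. A few items that the rule names are not reported here. Members, lists and rules were chosen with earlier results of these data known. Alternatives covered scaling, the guide term, the variance trend, filters, thresholds and leaving out each library.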

Additional observations from a re-analysis of the deposited data

Results flagged for a closer look

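KLK3 differed between the guides: its log2 change was −0.89 under sgC and 0.04, close to none, under sgPRKCI, a difference of −0.93. The ENZA libraries held 30 and 46 fragments there, against 25 and 32 in the DMSO libraries. The difference between the guides was not tested, because each guide and treatment has 1 library.

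Peaks that appeared under one guide and vanished under the other were the other case. At 338 sites a peak was gained on ENZA under sgC and lost under sgPRKCI, and at 129 sites it was lost under sgC and gained under sgPRKCI. The deepest library is sgC ENZA and the shallowest is sgC DMSO, and the part of depth in these numbers was not tested.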

How the results depend on the processing

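Both the number and the balance of called sites moved with the settings. Against 604 higher and 1221 lower sites, cyclic loess gave 473 and 722, coverage scaling 6947 and 408, no guide term 14 and 69, no variance trend 35 and 826, and the fold enrichment as deposited 2 and 11, where the SD of the background ratio was 0.76 and 0.74 against 0.34 and 0.31 for the height. A geometric mean of at least 50 fragments, added after seeing the data, gave 386 and 729 of 11166 sites. Leaving out each library, which also takes out the guide term since a fit on 3 libraries has no residual degree of freedom with it, gave 0 to 29 higher and 0 to 115 lower sites. The 51 sites at least 2-fold lower became 10 with coverage scaling and 12 after loess.

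Gained sites (671) became 347 with fragments scaled to sgC DMSO, 424 with equal numbers of peaks and 1107 when a peak had to cover at least 50% of the site. Lost sites (274) became 143 at a −log10 q of at least 10 and 494 with that cover. With libraries scaled by their medians, 7 gained and 238 lost sites were tall enough to be called at the other depth. Gained genes (51) became 33 with scaled fragments, 308 when only the sgC libraries were used and 166 when only the sgPRKCI libraries were used. Lost genes (11) became 54 and 105 with single guides, 23 with no peak asked to be absent beyond 1 kb and 4 by RefSeq starts.

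Of 55 named genes, 49 kept direction and side of the threshold after loess, 49 with coverage scaling and 4 without sgC DMSO. The sign turned at TMPRSS2 (0.00) with coverage scaling. With the fold enrichment as deposited only 3 of the 55 genes kept direction and side of the threshold, and without the guide term 17 did. The sign turned with that fold enrichment at CBX2 (−0.18), CYP51A1 (−0.89), FKBP5 (0.05), IRF7 (0.35) and KLK3 (0.28). The cause of these moves was not tested. The samples were paired by guide, and the fit without that pairing is given above.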

Other observations

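Zinc finger genes of chromosome 19, a family of KRAB-type repressors in large clusters, were counted after the calls had been seen. Of 207 tested genes with a ZNF-type symbol on chromosome 19, 52 fell and 0 rose (25.1% lower, beside 4.56% of all genes), with a median log2 change of −0.16, −0.15 under sgC and −0.16 under sgPRKCI. Their median relative height was 1.26 in sgC ENZA and 1.29 in sgPRKCI ENZA, against 1.41 in sgC DMSO and 1.47 in sgPRKCI DMSO, so these are not low sites. After loess 49 were lower and 0 higher, and scaled by coverage the median was 0.12 beside 0.30 over all genes. The 52 lower genes stood at 46 sites and their changes ran from log2 −0.92 to −0.22. Zinc finger genes on other chromosomes did not show this: of 244 tested, 15 fell and 11 rose, with a median of 0.01. Other genes of chromosome 19 lay between, with 59 lower and 11 higher of 696 and a median of −0.06. The groups were sorted by symbol alone, so the zinc finger gene ZIK1 (log2 −1.66) was counted among these other genes. Many zinc finger genes of chromosome 19 have close paralogues, and how multiply aligned reads were treated is not given in the sources used here.

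Of 17 HOX genes 3 rose and 2 fell, beside 5.37% higher and 4.56% lower of all genes, and after loess 3 were higher and 1 lower. They lay on 14 low sites with relative heights near 0.538 and 0.460 on ENZA, against 0.592 and 0.522 on DMSO. Of these genes 35.3% overlapped H3K27me3 in some condition. That share over all genes is not given here, and H3K27me3 peaks of single conditions overlapped 3.31% to 4.25% of all shared sites. Gained genes that belong to the lists included OPRK1 (17 fragments in sgC ENZA and 13 in sgPRKCI ENZA), NKX2-1 (15 and 22) and OLIG2 (12 and 14), each with no peak on DMSO and each below the height that would have been seen there. EZH2 peaks of the sgPRKCI ENZA library overlapped 89.2% of the shared H3K4me3 sites, against 7.57% for sgC ENZA, 20.7% for sgC DMSO and 6.46% for sgPRKCI DMSO; at the sites higher on ENZA that share was 99.8% and at the lower ones 76.8%, and at the sites called after loess it was 96.0% and 91.4%.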
